A study of Mus musculus with 133 samples.

Results

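Hepatocyte RNA of very old female (VOF) mice, about 100 weeks of age, was compared between partial hepatectomy (PH) and sham surgery at 96 h, labelled 4 days. PH removes most of the liver and leaves the rest to regrow. The study's text does not describe the sham operation. The comparison holds every library titled for VOF at 4 days after either operation, except 1 PH library whose replicate number carries an X, since 3 unmarked PH libraries remain. These were 6 of the 133 libraries of the series, 3 PH and 3 sham, and all 11048 genes tested. All mice were wild-type C57BL/6, and the cells were obtained by collagenase perfusion of the liver and not sorted further as far as the labels state. The labels do not say whether the 3 libraries of a group came from separate mice, so that p-values measure a spread between libraries. That spread was estimated in 1 model of 75 libraries in 25 groups, these 6 among them, and not from the 6 alone. For the groups named YM, OM and VOM, the study describes 3 mice each at every analysis point, and its text gives no sex of the mice.

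The libraries were made by CEL-seq2, a method that reads the 3′ end of each transcript with a molecular identifier, and their totals ranged from 1547713 to 2099950 deposited counts. Levels are given as CPM, the counts of a gene scaled to a common library size, which are not corrected for gene length and so do not rank genes against each other. The libraries carry a mix number, which the study's text does not explain. PH libraries 1 and 2 and sham libraries 1 and 2 were all in mix 6, whereas PH library 3 was in mix 22 and sham library 3 in mix 15, so that the third pair cannot be told apart from its mixes and results are also given for mix 6 alone. A gene was called higher or lower when edgeR's quasi-likelihood test gave a Benjamini-Hochberg adjusted p under 0.1 and the difference was at least 2-fold. Every log2 fold change is PH minus sham with its standard error (SE), n is 3 libraries in each group, and every adjusted p is over the 11048 genes.

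After hepatectomy, hepatocytes that were resting leave quiescence, replicate their DNA and divide, while the remaining liver goes on with synthesis of plasma proteins, metabolism of drugs and supply of glucose. Entry into DNA replication is driven by E2F factors, which induce the MCM helicase and other replication proteins. Entry into mitosis is driven by cyclin B with Cdk1 and by genes that Foxm1 and B-Myb switch on late in the cycle through promoter elements known as the CHR (cell cycle genes homology region) and the CCAAT box. Many liver genes also differ between the sexes under the control of the growth hormone pattern.

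At 96 h, 343 genes were higher after PH (3.1% of genes tested) and 228 were lower (2.06%), together 571 genes (5.17%). These shares are the background for each count of called list genes in VOF at 96 h. Within mix 6 alone, with 2 libraries in each group, 189 genes were called higher and 169 lower. DESeq2 called 467 genes (4.23%). Every PH library lay above every sham library for 1386 genes (12.5%) and below for 1333 (12.1%), and 502 genes were both called and not overlapping (4.54%). The median log2 fold change of all genes was −0.0093. Of the 343 higher genes 327 were protein coding (95.3%), and of the 228 lower genes 185 were (81.1%), beside 9728 of the 11048 tested (88.1%). The lower genes held 13 pseudogenes and 29 other non-coding or unconfirmed transcripts.

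**Figure D1:**
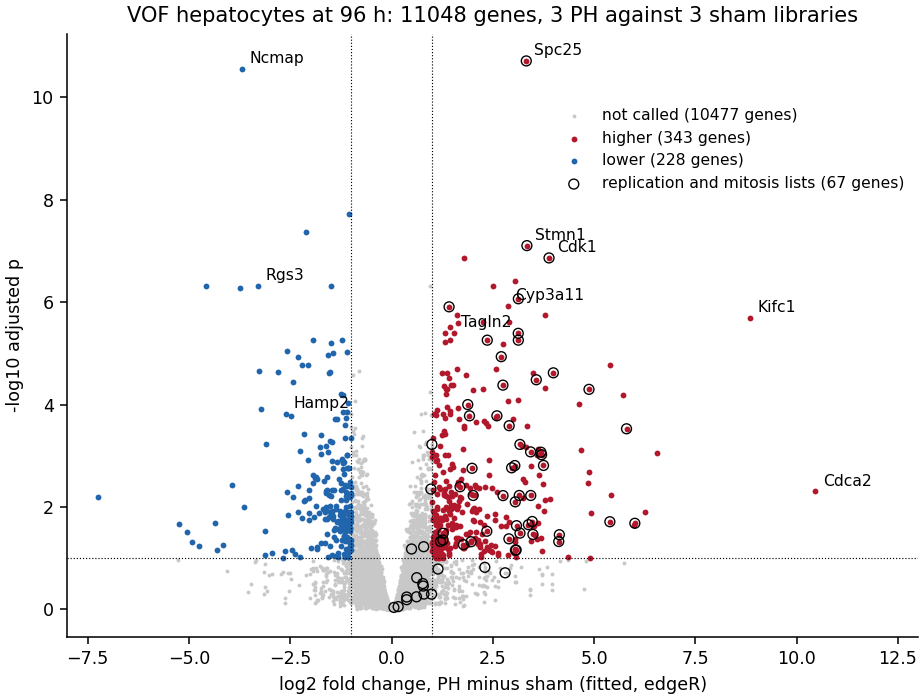
Volcano plot of VOF at 96 h. The x axis is the log2 fold change of PH against sham and the y axis is minus log10 of the adjusted p. Each point is 1 of the 11048 genes, called genes are coloured, and the 67 tested genes of the replication and mitosis lists are circled; 50 of these were called higher and none lower.

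Of the 35 tested genes of mitosis, 33 were higher after PH and none lower, with a median log2 fold change of 3.33 beside −0.0093 over all genes. The median was 3.17 with Kif11, which had no count after sham, set to its bound. In 34 of the 35 every PH library lay above every sham library, beside 1386 of all 11048 genes (12.5%). Within mix 6 alone 22 were called higher, and leaving out any 1 library left 26 to 33. The 2 genes not called were Bub1b at 0.99 ± 0.783 (SE; adjusted p = 0.505) and Kif23 at 2.80 ± 1.33 (SE; adjusted p = 0.193). Summed over the list, the level was 1086, 1673 and 1577 CPM in PH libraries 1, 2 and 3 and 155, 170.0 and 104 CPM in the sham libraries. The sums of the groups were far apart, with the lowest PH library above the highest sham library. The libraries hold RNA of many cells, and more dividing cells and more RNA in each such cell cannot be told apart.

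Spc25 (ENSMUSG00000005233, chromosome 2, 69193895 to 69206194, minus strand, GRCm38) encodes a part of the Ndc80 complex that ties chromosomes to spindle fibres. It read 111, 97.2 and 126 CPM in the PH libraries and 16.8, 8.41 and 9 CPM in the sham libraries (log2 fold change 3.33, SE 0.308, adjusted p = 1.95e-11). The PH libraries lay close together, and sham library 1 stood above the other two. Top2a (ENSMUSG00000020914, chromosome 11, 98992943 to 99024189, minus strand) encodes topoisomerase II alpha, which untangles sister chromatids, and read 105, 169 and 171 CPM after PH and 20.2, 16.8 and 14.1 CPM after sham (log2 fold change 3.13, SE 0.432, adjusted p = 8.62e-07). Mki67 (ENSMUSG00000031004, chromosome 7, 135689784 to 135716361, minus strand) encodes the proliferation marker Ki-67 and read 44.3, 56.5 and 56.3 CPM against 4.7, 7.08 and 5.63 CPM (log2 fold change 3.13, SE 0.477, adjusted p = 5.54e-06). Both genes were lowest in PH library 1, which was still far above all sham libraries.

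Cdk1 (ENSMUSG00000019942, chromosome 10, 69335146 to 69352938, minus strand), the kinase of mitotic entry, read 55.3, 95.2 and 113 CPM after PH and 11.4, 3.98 and 3.38 CPM after sham (log2 fold change 3.89, SE 0.489, adjusted p = 1.37e-07; log2 4.54 without sham library 1). Its partner Ccnb1 was sparse, with 5.76, 17.3 and 14.3 CPM against 2.02, 0.885 and 0 CPM (log2 fold change 3.70, SE 0.781, adjusted p = 0.000956; log2 4.50 without sham library 1). PH library 1 was the lowest PH library for both. Prc1, which bundles microtubules at the middle of the spindle, read 80, 151 and 112 CPM against 7.39, 10.2 and 10.7 CPM (log2 fold change 3.57, SE 0.593, adjusted p = 3.29e-05). Foxm1, the transcription factor of late cycle genes, had 6.91, 5.09 and 8.04 CPM after PH and 0.672, 0.885 and 0 CPM after sham, with 40 and 3 counts in all. Its ratio of PH to sham was 12.4 with an exact 95% interval of 3.95 to 62.6 that covers counting error only. Within mix 6 alone Foxm1 was not called (log2 2.80).

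The genes with the largest fold changes were mostly those close to 0 after sham. Cdca2, which brings a phosphatase to chromatin at the end of mitosis, read 82.3, 114 and 95.6 CPM after PH and had no count in any sham library, which makes it at least 58-fold higher against a floor of 3 counts in each library. Kifc1, a spindle motor, read 16.1, 45.3 and 32.6 CPM and was likewise at 0 after sham, at least 18.7-fold higher. Neither gene had any overlap between the groups. Nusap1, a spindle protein, had 83 counts after PH and 1 after sham (ratio 77.2, exact 95% interval 13.5 to 3085). For Cenpe, the kinetochore motor, the ratio was 33.2 (11 to 163), and for Cenph, a centromere protein, 59.8 (20.2 to 293). The others of the 12 strongest were Aunip, Ckap2, Shcbp1 and the transcribed pseudogene 2700099C18Rik, with ratios of 30.2 to 60.4, and Dbf4, Cdkn3 and Ccnb2. Dbf4, the activator of the Cdc7 kinase that fires replication origins, read 28.2, 53.9 and 41.1 CPM after PH and 0, 0 and 2.81 CPM after sham (log2 fold change 5.40, SE 0.873, adjusted p = 1.68e-05). Cdkn3, a phosphatase of cyclin-dependent kinases, read 35.1, 58 and 98.2 CPM against 2.69, 3.54 and 1.13 CPM (log2 fold change 4.64, SE 0.83, adjusted p = 9.78e-05). Leaving out 1 library moved these sparse genes further than others: Aunip was not called without PH library 3 (log2 4.39), while Dbf4 was at 4.70 without sham library 2. Without sham library 3 Dbf4 had no count left after sham, and its fitted value of 9.22 is no bound. Ccnb2, a second cyclin B, had a log2 fold change of 3.99 ± 0.66 (SE; adjusted p = 2.41e-05). Within mix 6 alone Aunip (log2 6.24), Ckap2 (4.44) and Shcbp1 (3.40) were not called.

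In RefSeq promoters of GRCm38.p6, from 250 bases before to 50 bases after the transcription start, the CHR with the letters TTTGAA was searched on both strands. It was held by 22 of the 30 promoters found for 29 genes of the mitosis list (73.3%), by 17.9% of all 32851 promoters, by 12.6% of the promoters of genes tested and by 8.82% of those of the replication list. The letters CCAAT were held by 76.7% of the mitosis promoters and 37.4% of all, and both motifs by 66.7% and 6.95%. A match of letters is a description and not a binding site. The windows of 30 bases below hold the CHR of 3 mitosis genes that stand at the head of the list, in capitals, 5′ to 3′ on the strand of the gene (TTCAAA is TTTGAA read from the opposite strand).
Top2a, chr11:99024351-99024380, minus strand: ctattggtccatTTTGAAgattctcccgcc
Top2a, chr11:99024195-99024224, minus strand: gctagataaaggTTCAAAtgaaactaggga
Mki67, chr7:135716478-135716507, minus strand: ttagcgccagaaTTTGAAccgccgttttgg
Mki67, chr7:135716460-135716489, minus strand: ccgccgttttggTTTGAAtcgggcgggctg
Cdk1, chr10:69352966-69352995, minus strand: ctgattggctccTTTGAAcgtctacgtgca
Cdk1, chr10:69352910-69352939, minus strand: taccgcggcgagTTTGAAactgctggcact
The first Top2a window and the first Cdk1 window also hold the letters ATTGG, which are CCAAT on the opposite strand, a few bases before the CHR. The promoter of Ccnb1 held no TTTGAA in this window, and Foxm1 was not matched.

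Of the 32 tested genes of DNA replication and its start (G1/S), 17 were higher and none lower, with a median log2 fold change of 1.27 (1.24 with Uhrf1, at 0 after sham, set to its bound). All 32 had a fold change above 0, beside 5411 of all 11048 genes, but 15 did not pass both thresholds. Within mix 6 alone 11 were called. The summed level was 785, 536 and 626 CPM after PH and 285, 323 and 317 CPM after sham. This list was highest in PH library 1, whereas the mitosis list was lowest there.

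Mcm5, a subunit of the replicative helicase, read 31.1, 13.2 and 17 CPM after PH and 2.69, 2.66 and 4.5 CPM after sham (log2 fold change 2.60, SE 0.485, adjusted p = 0.000166). Mcm2, another subunit, read 10.9, 7.12 and 12.1 CPM against 0.672, 2.21 and 1.13 CPM (log2 fold change 2.75, SE 0.47, adjusted p = 4.19e-05; log2 3.36 without sham library 2). E2f1, a transcription factor of replication genes, read 39.7, 11.7 and 25.9 CPM against 6.05, 6.64 and 7.88 CPM (log2 fold change 1.88, SE 0.339, adjusted p = 0.0001). The PH and sham libraries did not overlap for any of these, and PH library 2 was the lowest after PH for each.

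Gins1, a part of the GINS complex that completes the helicase, rose less and more evenly, with 97.3, 101 and 81.7 CPM against 38.3, 30.1 and 36.6 CPM (log2 fold change 1.42, SE 0.2, adjusted p = 1.24e-06). Rrm2, a subunit of the enzyme that makes deoxynucleotides, read 35.1, 16.3 and 33 CPM after PH and 16.8, 6.64 and 3.94 CPM after sham (log2 fold change 1.69, SE 0.406, adjusted p = 0.00404). Its log2 fold change was 2.36 without sham library 1, and 1.20 and not called within mix 6 alone. Pcna, the sliding clamp of DNA polymerase, read 90.4, 70.7 and 69.7 CPM against 44.3, 28.3 and 43.9 CPM, and its log2 fold change of 0.996 ± 0.203 (SE; adjusted p = 0.000602) lay just under the 2-fold minimum, so it was not called. Ccnd1, the cyclin of G1, read 100.2, 121 and 67.9 CPM against 49, 70 and 65.8 CPM and did not pass the test (log2 fold change 0.63, SE 0.319, adjusted p = 0.229). PH library 3 of Ccnd1 lay just under sham library 2.

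**Figure D2:**
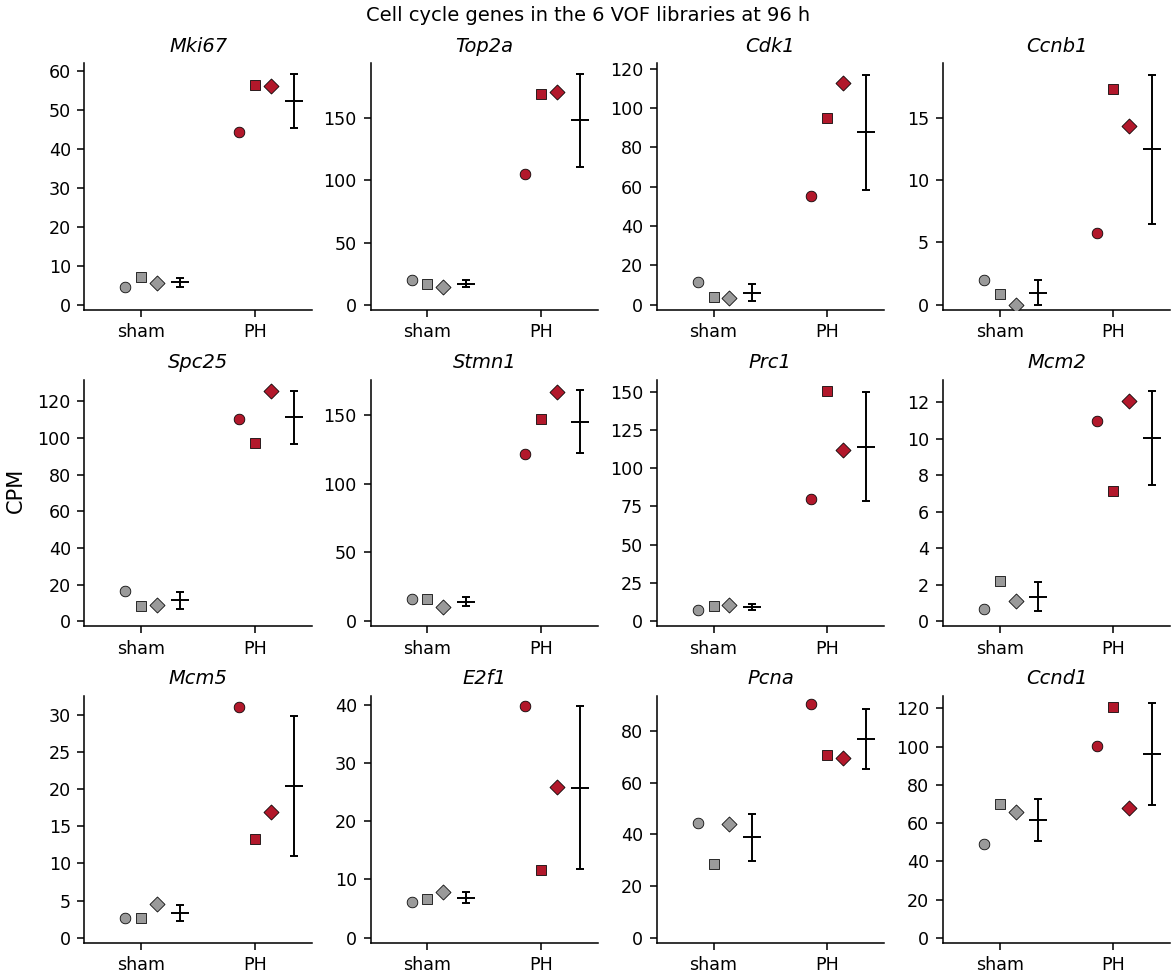
Cell cycle genes in VOF at 96 h. Each panel is 1 gene, with CPM on the y axis, PH and sham on the x axis, libraries 1, 2 and 3 as circle, square and diamond, and the mean ± SD of 3 libraries as a bar. Of these 12 genes only Pcna, at a log2 fold change of 0.996, and Ccnd1, at 0.63, were not called.

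Of 16 p53 targets 1 was higher (background 3.1%), Phlda3, a repressor of Akt (log2 fold change 3.48, SE 1.05, adjusted p = 0.0239). The call was not made within mix 6 alone (log2 1.79) or without PH library 3 (2.30), sham library 2 (3.33) or sham library 3 (2.97), and without sham library 1 the value was 4.45. Cdkn1a, which encodes the cell cycle inhibitor p21, read 112, 49.4 and 119.7 CPM after PH and 92, 38.5 and 23.6 CPM after sham and did not pass (log2 fold change 0.89, SE 0.614, adjusted p = 0.422), with sham library 1 inside the range of the PH libraries. Among 14 DNA damage response genes, with a median log2 fold change of 0.04, the higher ones included H2afx (log2 fold change 1.72, SE 0.398, adjusted p = 0.00284), which encodes a histone marked at DNA breaks, and Topbp1 (log2 fold change 1.62, SE 0.437, adjusted p = 0.0111), which also serves the firing of origins. Of H2afx and Topbp1, Topbp1 alone was called within mix 6.

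Of 21 cytoskeleton genes 6 were higher (background 3.1%) and 1 lower (background 2.06%), with a median of 0.37. Stmn1 (ENSMUSG00000028832, chromosome 4, 134468320 to 134473843, plus strand), which encodes the microtubule-destabilising protein stathmin and was also a member of the mitosis list, read 121, 147 and 167 CPM after PH and 16.1, 15.9 and 10.7 CPM after sham (log2 fold change 3.34, SE 0.41, adjusted p = 7.9e-08). Tagln2, an actin-binding protein, read 165, 307 and 253 CPM against 83.3, 83.2 and 83.8 CPM (log2 fold change 1.53, SE 0.229, adjusted p = 4.08e-06). The sham libraries of Tagln2 were almost equal, and the lowest PH library was well above them. The other higher members were S100a11, Tuba1b, Tubb6 and Krt8, with log2 fold changes of 1.61, 1.25, 2.27 and 1.11, the last of which was just under 2-fold without sham library 3 (0.99). S100a6, a calcium-binding protein, read 23.6, 48.9 and 63 CPM against 86, 342 and 131 CPM and was the lower member (log2 fold change −2.04, SE 0.498, adjusted p = 0.00469). It was at −1.25 and not called without sham library 2, and was not called by DESeq2 or with a term for the mix.

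Of 12 tested genes of fetal liver and dedifferentiation 5 were higher (background 3.1%) and none lower, with a median of 0.83. Within mix 6 alone 2 were called. Anxa2, an annexin of the plasma membrane, read 57, 57.5 and 75.5 CPM after PH and 18.8, 29.2 and 19.7 CPM after sham (log2 fold change 1.47, SE 0.25, adjusted p = 4.19e-05), and no library of one group reached the other. The others were Spp1 (log2 fold change 2.05, SE 0.513, adjusted p = 0.00577), which encodes osteopontin, Sox9 (log2 fold change 1.16, SE 0.357, adjusted p = 0.0285), a factor of bile duct and progenitor cells, the imprinted RNA H19 (log2 fold change 2.05, SE 0.668, adjusted p = 0.0411) and Tnfrsf12a (log2 fold change 2.42, SE 0.873, adjusted p = 0.0698), the receptor of TWEAK. Leaving out PH library 3, sham library 1 or sham library 3 left 3, 3 and 2 genes of the list called. Without PH library 3 the log2 fold change of H19 was 0.72, and that of Sox9 was 0.92 without PH library 3 and 0.83 without sham library 3. Of the fits that left out 1 library, Tnfrsf12a was called only in that without PH library 2, and was at 1.91 to 3.11 in the rest. Spp1 and Sox9 are also markers of cholangiocytes, and their summed level was 58 to 127 CPM after PH and 22.5 to 55.8 CPM after sham. The other 8 of 10 cholangiocyte markers, Krt19 and Epcam among them, were not analysed here, and the part of these cells in the result was not tested.

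Among 38 drug metabolism genes 6 were higher (background 3.1%) and 1 lower (background 2.06%), with a median of 0.04. Within mix 6 alone 3 were called higher. Cyp3a11 (ENSMUSG00000056035, chromosome 5, 145854426 to 145879964, minus strand), a main cytochrome P450 of drug oxidation, read 1073, 591 and 1014 CPM after PH and 91.4, 179.7 and 94 CPM after sham, 7.29-fold higher (log2 fold change 2.87, SE 0.401, adjusted p = 1.19e-06). All PH libraries lay well above the sham libraries, and PH library 2 was the lowest of them. Fmo5, a flavin monooxygenase, read 318, 193 and 378 CPM against 142, 135 and 80.5 CPM (log2 fold change 1.32, SE 0.201, adjusted p = 5.94e-06), and it was not called within mix 6 alone. Gstp1, a glutathione transferase, read 326, 219.8 and 334 CPM against 112, 126 and 105 CPM (log2 fold change 1.36, SE 0.225, adjusted p = 2.41e-05). Both rose without overlap of the groups. Gstp1 and Cyp3a11 belong to families of similar sequence, so that reads may be shared with near copies.

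Genes with a sex bias in mouse liver moved in both directions. Of 25 male-biased genes 7 were higher and none lower (median 0.30), with 4 called within mix 6 alone. Of 25 female-biased genes 1 was higher and 5 were lower (median −0.77). Over all genes tested 3.1% were called higher and 2.06% lower. Only 3 of the 25 female-biased genes had a fold change above 0, beside 5411 of all 11048 genes. In 7 of the 25 every PH library lay below every sham library, beside 1333 of all genes (12.1%). Within mix 6 alone none of the female-biased genes was called lower. The count of lower genes was 8 without PH library 1, 10 without PH library 2, 2 without PH library 3 and 3 without sham library 3. Summed over the list, they read 3028, 6380.1 and 3627 CPM after PH and 9268, 6068 and 8849.8 CPM after sham, so that PH library 2 lay above sham library 2. The summed male-biased genes overlapped at 16958, 13585 and 13112 CPM after PH and 17075, 11427 and 17296 CPM after sham.

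C8a (ENSMUSG00000035031, chromosome 4, 104815679 to 104876398, minus strand) encodes a chain of the complement membrane attack complex and is male-biased in liver. It read 1811, 1724 and 2843 CPM after PH and 668, 1019.6 and 362 CPM after sham (log2 fold change 1.64, SE 0.297, adjusted p = 0.000118). Serpina1e, an alpha-1-antitrypsin gene in a cluster of near copies, read 3404, 1748 and 1891 CPM against 912, 669 and 993 CPM (log2 fold change 1.45, SE 0.268, adjusted p = 0.000152), and Cyp2d9, a male-biased P450, read 160.0, 64.6 and 168 CPM against 41, 41.6 and 27 CPM (log2 fold change 1.84, SE 0.306, adjusted p = 2.6e-05). None of the 3 genes overlapped between groups. The other higher male-biased genes were Gstp1, given above, C6 and C8b, with log2 fold changes of 1.05 and 1.27, and Hsd3b2. C6 was not called without PH library 1 (0.95) or sham library 2 (0.84), and Hsd3b2, with 16 counts after PH and 3 after sham (ratio 4.96, exact 95% interval 1.42 to 26.6), not without PH library 1 (1.68), PH library 3 (2.19), sham library 2 (2.02) or sham library 3 (2.20). C9, a further part of the same complement complex, read 522, 578 and 831 CPM against 350.0, 352 and 197 CPM (log2 fold change 1.10, SE 0.234, adjusted p = 0.000966) and was the only called gene among 33 secreted plasma proteins and coagulation factors (median −0.02), but its fold change fell below 2-fold in the fits without PH library 3 and without sham library 3 (log2 0.88 in both). Alb, which encodes albumin, read 10829.7, 9522 and 7880.0 CPM against 6999, 4526 and 6177 CPM and did not reach 2-fold (log2 fold change 0.67, SE 0.224, adjusted p = 0.0458).

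Of the female-biased genes, Prlr, the prolactin receptor, read 414, 569 and 251 CPM after PH and 801, 696 and 1316 CPM after sham (log2 fold change −1.19, SE 0.266, adjusted p = 0.00184). Sult3a1, a sulfotransferase, read 2.3, 11.2 and 2.68 CPM against 34.3, 12 and 37.1 CPM (log2 fold change −2.31, SE 0.54, adjusted p = 0.0039), with PH library 2 close to sham library 2. A1bg, a secreted glycoprotein, read 86.3, 488 and 40.2 CPM against 1532, 946 and 1138 CPM (log2 fold change −2.56, SE 0.709, adjusted p = 0.0144), and the P450 gene Cyp2c69 read 161, 627 and 313 CPM against 995, 698 and 801 CPM (log2 fold change −1.18, SE 0.444, adjusted p = 0.0843). In each of these 4 genes PH library 2 was the highest after PH, and without it A1bg was at −4.26, Sult3a1 at −3.39 and Cyp2c69 at −1.80. Without PH library 3 Prlr (−0.93) and A1bg (−2.06) were not called, nor was Prlr without sham library 3 (−0.86). Cyp2c69 was called in none of the other 5 fits that left out 1 library (−0.82 to −1.29). Cux2, a repressor of male-biased genes in female liver, read 5.18, 4.07 and 2.23 CPM against 7.39, 7.08 and 32.1 CPM (log2 fold change −2.03, SE 0.509, adjusted p = 0.0068), and this rested on sham library 3, without which the log2 fold change was −0.94 and not called. Sult1e1, the estrogen sulfotransferase, went the other way with 13.8, 13.2 and 41.5 CPM against 9.4, 2.66 and 5.06 CPM (log2 fold change 2.08, SE 0.566, adjusted p = 0.0124), and it was not called without PH library 3 (log2 1.30) or sham library 2 (1.69).

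**Figure D3:**
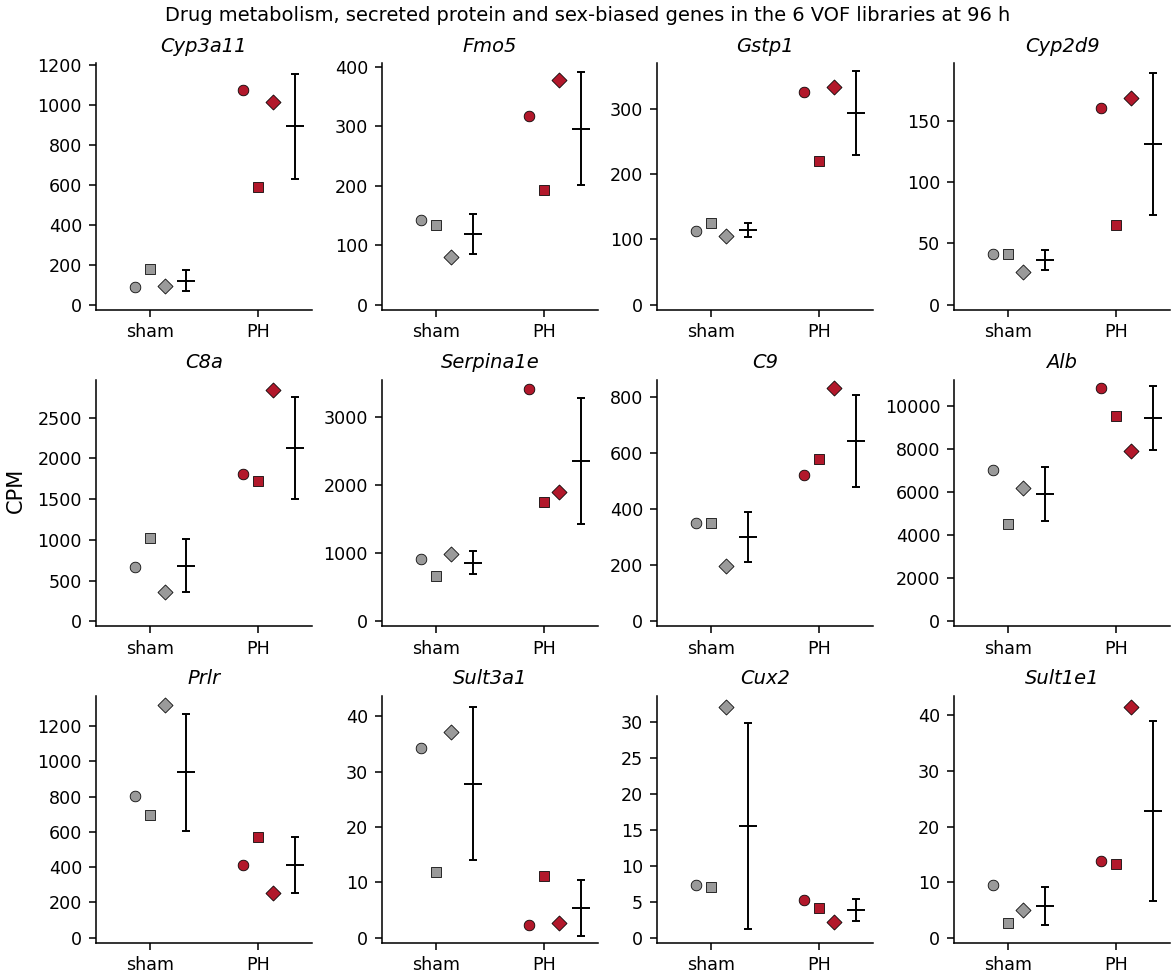
Genes of liver function in VOF at 96 h, 1 gene to a panel, with CPM on the y axis, PH and sham on the x axis, libraries 1, 2 and 3 as circle, square and diamond, and the mean ± SD of 3 libraries as a bar. The PH libraries of Cyp3a11 lie above all sham libraries and those of Prlr below, and Alb was the gene among the 12 that was not called.

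Of 17 genes of fatty acid and triglyceride synthesis 3 were lower and none higher (median −0.46), and 1 was lower within mix 6 alone. Mlxipl, which encodes the glucose-sensing factor ChREBP, read 34.5, 52.4 and 49.1 CPM after PH and 90.7, 127 and 97.3 CPM after sham (log2 fold change −1.21, SE 0.212, adjusted p = 6.48e-05), with no overlap. Lpin1, a phosphatidate phosphatase, had a log2 fold change of −1.63 ± 0.466 (SE; adjusted p = 0.017) and overlapping groups. It was not called within mix 6 alone or without PH library 2 (−1.31), PH library 3 (−1.31) or sham library 1 (−1.21), and was at −2.55 without PH library 1. Scd1, which makes monounsaturated fatty acids, read 382, 367 and 278 CPM after PH and 1462, 58.4 and 778 CPM after sham (log2 fold change −1.16, SE 0.445, adjusted p = 0.0923), with sham library 2 below all PH libraries. It was called when sham library 2 was left out and in no other fit without 1 library, and was at −0.28 without sham library 1. The count of lower genes was 6 without sham library 2 and 1 without PH library 3 or sham library 1. Of 24 genes of fatty acid oxidation and ketogenesis 1 was higher, Acot1 (log2 fold change 1.41, SE 0.534, adjusted p = 0.0861), a thioesterase, and 1 lower, Fgf21, a hormone of fasting. Fgf21 had 1 count after PH and 24 after sham (ratio 0.0387, exact 95% interval 0.000942 to 0.238), with no count in sham library 3. Fgf21 was not called without any 1 of the PH libraries or without sham library 2 (log2 −2.78 to −5.93), and Acot1 was not called without PH library 1 (0.83), PH library 3 (1.32), sham library 1 (1.28) or sham library 3 (1.26), nor within mix 6 alone or by DESeq2. None of 23 genes of cholesterol synthesis and uptake was called by edgeR or DESeq2 (median −0.06), and 3 had an unadjusted p under 0.05.

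Among 15 genes of gluconeogenesis and glycogen none was higher (median −0.44), and the lower ones included Irs2, an adaptor of the insulin receptor. Irs2 read 7.48, 10.7 and 9.82 CPM after PH and 10.7, 39.4 and 28.1 CPM after sham (log2 fold change −1.52, SE 0.402, adjusted p = 0.00957). The groups met for Irs2 at PH library 2 and sham library 1. Irs2 was lower within mix 6 alone, and without sham library 2 it was not called (log2 −1.08). None of 10 genes of glycolysis in proliferating cells was called by edgeR or DESeq2 (median 0.23), and 2 had an unadjusted p under 0.05.

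Other metabolic lists held 0 to 2 called genes. Of 26 genes of the urea cycle and amino acid metabolism Agxt, which clears glyoxylate, was lower (log2 fold change −1.13, SE 0.213, adjusted p = 0.000185), and the median was −0.06. Without sham library 3 Agxt lay just under the 2-fold limit and was not called, and it was not called within mix 6 alone (−0.91). Of 21 genes of bile acid synthesis and transport Slc51b, a bile acid exporter subunit, was higher (log2 fold change 1.53, SE 0.465, adjusted p = 0.0245), and it was not called within mix 6 alone or without sham library 1 (1.25). Cyp7a1, the rate-limiting enzyme of bile acid synthesis, read 77.1, 378 and 121 CPM after PH and 81.9, 33.6 and 119.8 CPM after sham, and it did not pass (log2 fold change 1.30, SE 0.647, adjusted p = 0.218), with PH library 2 above all the rest. Of 16 pericentral genes Csad, an enzyme of taurine synthesis, was lower (log2 fold change −1.37, SE 0.453, adjusted p = 0.0433) but not within mix 6 alone or without PH library 2 (−1.07), PH library 3 (−1.36) or sham library 2 (−1.28), and of 16 periportal genes none was called by edgeR or DESeq2 (1 at an unadjusted p under 0.05).

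Among 18 clock genes 2 were lower (background 2.06%, median −0.31). Nr1d1, which encodes the clock repressor REV-ERB alpha, read 46.6, 157 and 92 CPM after PH and 273, 341 and 332 CPM after sham (log2 fold change −1.68, SE 0.393, adjusted p = 0.00318), without overlap. Bhlhe40 was lower too (log2 fold change −1.20, SE 0.365, adjusted p = 0.0254), but its groups overlapped and it was not called without sham library 1 (log2 −0.67). The labels give no hour of day for the collections, and its part in the result was not tested.

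None of 26 acute phase genes and none of 20 genes of growth factor signalling was called by edgeR or DESeq2, with medians of 0.03 and −0.16 and with 1 and 4 genes at an unadjusted p under 0.05. Saa1, a major acute phase protein, read 2662, 11114 and 6321 CPM after PH and 8230.5, 3745 and 5033 CPM after sham (log2 fold change 0.24, SE 0.543, adjusted p = 0.859), and the libraries of each group ranged widely. Summed over the acute phase list, the level was 58408, 102398 and 82518 CPM after PH and 103746, 64499 and 69131 CPM after sham. The groups overlapped over nearly their whole range. Igf1, the growth factor that liver secretes under growth hormone, read 782, 821 and 799.8 CPM against 823, 609.6 and 674 CPM (log2 fold change 0.19, SE 0.13, adjusted p = 0.419), and Igfbp1, one of its binding proteins, 95, 67.2 and 48.7 CPM against 131, 111 and 217 CPM (log2 fold change −1.13, SE 0.486, adjusted p = 0.142).

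Of 21 genes of the unfolded protein and amino acid stress response, Psat1, an enzyme of serine synthesis, was higher (log2 fold change 2.17, SE 0.584, adjusted p = 0.0109) and Chac1, which degrades glutathione, was lower (log2 fold change −1.65, SE 0.455, adjusted p = 0.0128), neither of them within mix 6 alone. Psat1 was not called without PH library 1 (1.60), nor Chac1 without PH library 3 (−1.32) or sham library 3 (−1.31). Of 20 interferon response genes 1 was higher, Ifi27l2b (log2 fold change 1.65, SE 0.241, adjusted p = 2.56e-06), which read 61.6, 32.6 and 63.9 CPM after PH and 18.8, 19 and 12.4 CPM after sham. The other 19 were not called, and the median of the list was −0.33. Of 29 basal transcription factors 1 was lower, Taf7, a subunit of TFIID (log2 fold change −1.02, SE 0.285, adjusted p = 0.0143), which was under 2-fold without PH library 1 (−0.92), PH library 2 (−0.93) or sham library 2 (−0.68).

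**Figure D4:**
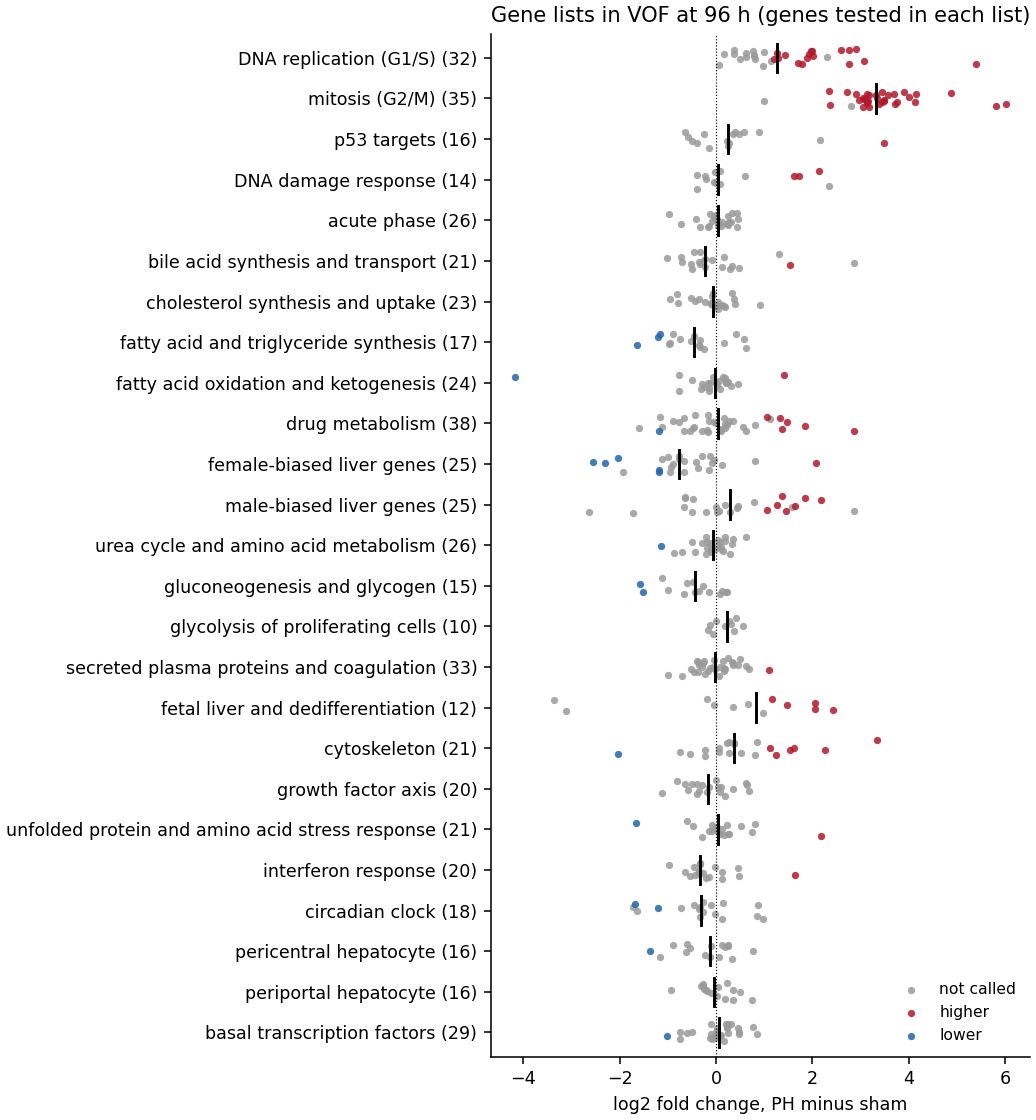
Log2 fold change of PH against sham in VOF at 96 h for the tested members of 25 gene lists. Each row is a list, each point a gene, the black bar is the list's median, and the dotted line is the median of all genes. The mitosis list, with a median of 3.33, and the replication list, with 1.27, lie farthest to the right, and the female-biased list, with −0.77, farthest to the left.

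Among the lower genes with the largest changes, Ncmap (ENSMUSG00000043924, chromosome 4, 135369576 to 135398227, minus strand), which encodes a membrane protein known from myelin, read 5.76, 8.65 and 3.13 CPM after PH and 53.1, 76.6 and 95.6 CPM after sham (log2 fold change −3.69, SE 0.343, adjusted p = 2.8e-11). Its libraries were far apart, and the gene overlaps Gm12991 on the other strand. Rgs3, a regulator of G protein signalling, read 0, 3.05 and 4.47 CPM against 34.3, 22.1 and 24.8 CPM (log2 fold change −3.30, SE 0.444, adjusted p = 4.9e-07; the fold was 1.62 times larger without PH library 3). Hamp2, a copy of the hepcidin gene, read 185, 245 and 86.6 CPM against 942, 479.9 and 1723 CPM (log2 fold change −2.61, SE 0.483, adjusted p = 0.000152). Hamp itself, which encodes the iron hormone hepcidin and is closely related in sequence, read 2662, 2504 and 3066 CPM against 6524, 5192 and 4544 CPM and did not pass (log2 fold change −0.98, SE 0.406, adjusted p = 0.122), and counts of the pair may share reads.

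Of the other 9 of the 12 strongest lower genes, only Dlgap1, a scaffold protein of synapses (log2 fold change −2.80, SE 0.46, adjusted p = 2.3e-05), and Gm11983 (log2 fold change −3.27, SE 0.537, adjusted p = 2.21e-05) and Snhg11 (log2 fold change −3.23, SE 0.588, adjusted p = 0.000121), which the annotation lists as protein coding, were not pseudogenes or non-coding. Gm38070, an unconfirmed transcript that overlaps Il1r1 on the same strand, read 0, 2.04 and 0 CPM after PH and 16.8, 15.5 and 20.8 CPM after sham (log2 fold change −4.58, SE 0.616, adjusted p = 4.9e-07). F830115B05Rik, which overlaps 2900026A02Rik on the same strand, read 0, 2.54 and 2.68 CPM against 30.9, 21.7 and 24.2 CPM (log2 fold change −3.73, SE 0.506, adjusted p = 5.33e-07). Both were near 0 after PH, and their counts may belong to the overlapping gene. The fitted fold change of Gm38070 was 10.7 times as large without PH library 2, which left no count after PH, so that this value is no bound. Its log2 value was −3.95 without PH library 3. Without PH library 2 Gm37376 was at −4.56, without PH library 3 Snhg11 was at −7.57, and the fold change of Gm11983 was 1.71 times smaller without sham library 2. The remaining 4 were the ribosomal RNA CT010467.1, the processed pseudogene Gm6428, Gm37376, which lies opposite Malat1, and Gm30097, which lies opposite Fgg and rested on sham library 1 (log2 −2.96, and −1.32 and not called without it). Gm30097 was not called without any 1 of the PH libraries either (−2.54 to −3.34), nor was Gm6428 without PH library 1 (−2.62), and CT010467.1 was at −4.59 without PH library 2. The log2 fold changes of CT010467.1, Gm6428 and Gm37376 were −3.65, −3.12 and −3.10.

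The labelled cell type was checked on marker lists. All 12 hepatocyte markers were tested, none was called by edgeR or DESeq2 (2 at an unadjusted p under 0.05), and their summed level was 37651 to 44118 CPM after PH and 29630 to 39317 CPM after sham. Kupffer cell markers summed to 1215 to 2429 CPM after PH and 1340 to 1925 CPM after sham, with 1 of 12 higher (Marco, at 0.38 and not called without PH library 2, and not called without sham library 1 or 2 or by DESeq2). Endothelial markers summed to 542 to 679 CPM and 527 to 754 CPM (0 of 11 called by edgeR or DESeq2 and 2 at an unadjusted p under 0.05), and stellate cell markers to 461 to 538 CPM and 425 to 507 CPM (1 of 11 higher, Col3a1, not called without PH library 2 or 3, sham library 1 or 3 or within mix 6 alone, at 0.89 to 1.14). The 5 tested erythroid markers summed to 36.2 to 90.1 CPM and 11.1 to 26.4 CPM (1 higher, Alas2, at 1.04 and not called without sham library 2). The 2 lymphocyte markers tested overlapped at 48.4 to 430 CPM after PH and 69.1 to 318 CPM after sham, and 13 of 15 lymphocyte and all 10 neutrophil markers were not analysed here. No tested defining marker was at 0 over the 6 libraries, and the part of other cells in the results was not tested.

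The effect of PH in VOF at 96 h was then set against 3 other effects of PH, each fitted from its own PH and sham libraries, 3 of each: young females (YF, 11 to 14 weeks) at 96 h, very old males (VOM, 100 weeks) at 96 h and VOF at 52 h. All were wild-type C57BL/6. In those pairs PH changed 436 (3.95%), 803 (7.27%) and 731 genes (6.62%). The difference of the effects was tested as an interaction. It was called for 144 genes against YF (1.3%), 305 against VOM (2.76%) and 121 against VOF at 52 h (1.1%). None of the libraries of YF or VOM at 96 h or of VOF at 52 h shared a mix with those of VOF at 96 h, so that age, sex and time cannot be told apart from the mix. With only the 4 groups of each comparison in the model these counts were 9, 164 and 28. When the model held a term for the mix they were 10, 82 and 7.

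The median log2 fold change of the mitosis genes, 3.33 in VOF at 96 h, stood beside 2.46 in YF (15 of 35 higher, background 2.79%), 3.30 in VOM (25 of 35, background 4.93%) and 3.79 in VOF at 52 h (34 of 35, background 3.38%). The summed level was 703 to 1566 CPM after PH and 141 to 336 CPM after sham in YF, 2498 to 4792 and 93.8 to 191 CPM in VOM, and 2646 to 3892 and 197 to 385 CPM in VOF at 52 h. The median log2 difference of the effects over the list was 0.99 against YF (−0.02 over all genes), −0.13 against VOM and −0.28 against VOF at 52 h, and the list itself was not tested. The PH libraries of VOF at 96 h lay within or just above the YF range and below those of VOM and of VOF at 52 h. Only Spc25 differed from YF, by 1.67 ± 0.446 (SE; adjusted p = 0.0552) on the log2 scale, in 10 of 16 other settings and not without PH library 3 or sham library 2 or 3. The difference of Spc25 was also not called with only the 4 groups in the model, with a term for the mix or with the replicate number as a block. Against VOM 2 genes were lower, Prc1 and Bub1b, of which Prc1 was at 0 in all VOM sham libraries, and against VOF at 52 h none differed. Prc1 was called in all 16 other settings and Bub1b in 8. Of the replication genes Mcm10 was higher against VOM and Pole lower against VOF at 52 h, called in 11 and 10 of 16 other settings. Those calls aside, a difference that missed the thresholds does not show equal effects. Dbf4, which is on neither list, had a higher effect in VOF than in VOM (log2 difference 3.98, SE 1.12, adjusted p = 0.0407), not called with a term for the mix. Its sham libraries read 60.5, 53.4 and 31.1 CPM in VOM, 39.2, 17.5 and 23.1 CPM in VOF at 52 h and 11.0, 0 and 0 CPM in YF.

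Cyp3a11 was called in all 3 differences. The log2 difference was 2.45 ± 0.536 (SE; adjusted p = 0.0149) against YF, 3.04 ± 0.539 (SE; adjusted p = 0.000126) against VOM and 2.30 ± 0.537 (SE; adjusted p = 0.0231) against VOF at 52 h. In YF at 96 h the gene read 1202, 1606 and 1815 CPM after PH and 913, 1522 and 1042 CPM after sham, and in VOM 1042, 1616 and 1576 and 1482, 1416 and 1891 CPM. The PH libraries of VOF at 96 h, at 1073, 591 and 1014 CPM, lay at the lower end of those levels or below them, and the sham libraries, at 91.4, 179.7 and 94 CPM, were below every library of YF and VOM. In VOF at 52 h it read 518, 320.1 and 443 CPM after PH and 555, 57.2 and 256 CPM after sham. The difference from YF was called in 15 of 16 other settings, that from VOM in all 16 and that from VOF at 52 h in 13. With a term for the mix the differences from YF and from VOF at 52 h were not called.

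Of the 25 male-biased genes 9 had a higher effect in VOF than in VOM (background 0.887%) and none a lower one. For C8a the log2 difference was 1.89 ± 0.414 (SE; adjusted p = 0.00372), with 1688, 2083 and 1939.8 CPM after PH and 1889.8, 2394 and 2529 CPM after sham in VOM. Its 3 sham libraries in VOM lay around or above the PH libraries of that group, whereas the VOF sham libraries were the lowest. For Serpina1e the difference was 2.04 (SE 0.375, adjusted p = 0.000236), with 2491, 2345 and 3092 CPM after PH and 3983, 3316 and 4623 CPM after sham in VOM. C9, which is on the plasma protein list and not among these 9, had a difference of 1.43 (SE 0.328, adjusted p = 0.00656). In VOM itself 10 of the male-biased genes were lower after PH (background 2.34%). Of the 3 genes only Serpina1e was called in all 16 other settings, and C8a and C9 were not called with a term for the mix.

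Interferon response genes formed the other separation from VOM. Of the 20 genes 17 had a lower effect in VOF than in VOM (background 1.87%), with a median log2 difference of −2.77. The list summed to 3851, 2840.3 and 2789.6 CPM in the VOM PH libraries and 573, 465 and 557 CPM in the VOM sham libraries, whereas in VOF at 96 h it was 663, 624 and 699.8 CPM after PH and 676, 930.2 and 748 CPM after sham. All 3 VOM PH libraries stood far above the VOM sham libraries and every VOF library at 96 h. Irf7, a transcription factor of the response, read 20.1, 9.67 and 18.8 CPM after PH and 17.5, 31.9 and 24.8 CPM after sham in VOF and 145, 56.5 and 93.3 and 16.6, 13 and 5.97 CPM in VOM (log2 difference −3.64, SE 0.4, adjusted p = 1.6e-09). Gbp3, a guanylate-binding protein, had a difference of −3.67 ± 0.569 (SE; adjusted p = 9.48e-06). In YF at 96 h 1 of the 20 genes was called higher (background 2.79%) and none lower, and no interferon gene differed between VOF and YF.

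Against YF, 90 genes had a lower effect in VOF (0.815%) and 54 a higher one (0.489%). The acute phase list held 2 of the lower ones, Socs3, a feedback inhibitor of cytokine signalling, and Steap4, a metal reductase. Socs3 read 28.2, 41.7 and 29.5 CPM after PH and 51.7, 47.8 and 64.7 CPM after sham in VOF, and 42.5, 23 and 37.9 and 2.86, 26.9 and 10.5 CPM in YF (log2 difference −2.66, SE 0.694, adjusted p = 0.0528). For Socs3 all 3 VOF sham libraries lay above the YF sham range. The difference in Socs3 was not called with only those 4 groups in the model, with a term for the mix, or without PH library 3 or sham library 3 of VOF. In YF 12 of the 26 acute phase genes were higher after PH (background 2.79%), and the list summed to 82969.8, 47284 and 68645 CPM after PH and 34170.2, 55746 and 40584 CPM after sham. Drug metabolism genes with a higher effect in VOF than in YF were Cyp3a11, Fmo5 and Cyp2c50. Fmo5 read 224, 209 and 208 CPM after PH and 307, 195 and 234 CPM after sham in YF (log2 difference 1.54, SE 0.283, adjusted p = 0.00177). Mlxipl, lower in VOF, read 108, 88.8 and 65.6 and 88.3, 78.4 and 93.8 CPM in YF (log2 difference −1.22, SE 0.301, adjusted p = 0.0364), and this was not called with only the 4 groups in the model, with a term for the mix or without PH library 1.

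Between 96 h and 52 h in VOF, the effect of PH differed for 78 genes in the higher (0.706%) and 43 in the lower direction (0.389%), among them Cyp7a1. It read 30.4, 23.4 and 28.6 CPM after PH and 63.6, 195 and 126 CPM after sham at 52 h, and the log2 difference of the effects was 3.51 ± 0.952 (SE; adjusted p = 0.0693). At 52 h every PH library lay below every sham library, which was not so at 96 h. The difference was called in 10 of 16 other settings, and not without PH library 2, sham library 1 or sham library 2 of VOF at 96 h. Nor was it called with only the 4 groups in the model, with a term for the mix or with the replicate number as a block. Of 18 clock genes Nr1d2 and Tef had a higher and Npas2 a lower effect at 96 h than at 52 h, and for Npas2 the difference was −4.69 ± 1.03 (SE; adjusted p = 0.0132). With a term for the mix the differences of Nr1d2, Tef and Npas2 were not called. In VOF at 52 h 8 of the clock genes were lower after PH (background 3.24%).

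**Figure D5:**
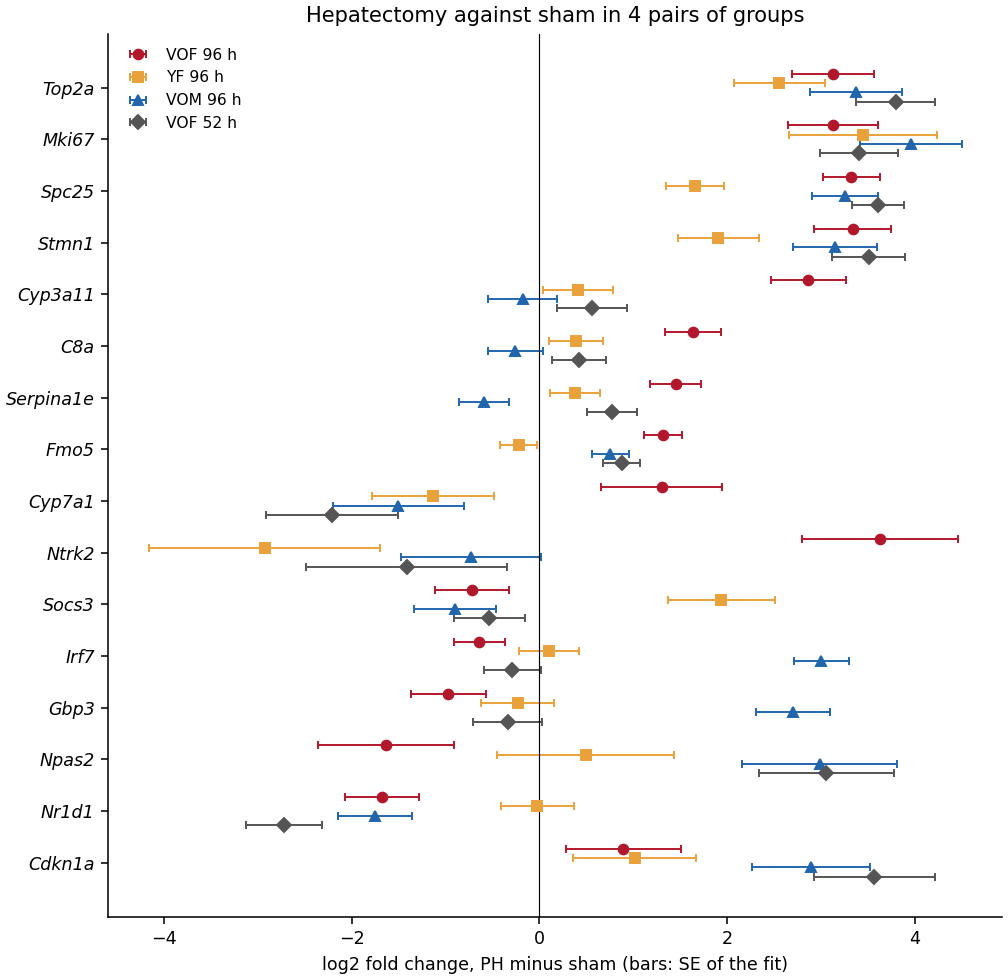
Effect of PH in 4 pairs of groups. The x axis is the log2 fold change of PH against sham with its SE, for 16 genes named on the y axis, in VOF at 96 h, YF at 96 h, VOM at 96 h and VOF at 52 h, 3 PH and 3 sham libraries each. The mitosis genes Top2a, Mki67, Spc25 and Stmn1 lie to the right in all 4 pairs, Cyp3a11 is farthest right in VOF at 96 h, and Irf7 and Gbp3 in VOM.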

How the data were processed

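Hepatocyte RNA was counted by 3′UTR-seq (CEL-seq2). The authors mapped reads to GRCm38 per the paper (the submitters' processing notes name GRCh38 and bcl2fastq 2.20), counted molecular identifiers, converted them to expected counts, left out 9 genes and genes of low expression, and corrected batches with ComBat-Seq. The deposited values are these expected counts, not scaled for depth; their expression threshold and batch variable are not given in the sources used here. Values that were not whole (30966 in 448 genes) were rounded here.

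A gene was kept where 1 library or more reached 0.5 CPM (11048 of 11049). After TMM scaling, edgeR 4.0.16 (R 4.3.3) fitted 1 quasi-likelihood model to 75 libraries in 25 groups, and calls used a Benjamini-Hochberg adjusted p under 0.1 with a 2-fold minimum, the iDEP defaults, since the paper names that tool. SE is the log2 fold change over the root of F, and differences between effects are interactions in the same model. Totals ranged from 294889 to 5311112 over the model, with YF sham library 2 at 465547. Where a group was at 0, a floor of 3 counts in each library gave a lower bound, and intervals and floors cover counting error only. On counts simulated for PH against sham in VOF at 96 h, with 200 of 11048 genes changed, 89% of the 2.83-fold and 96% of the 5.66-fold changes were called, with 9 false calls. Sparse genes were left out of those changed, all groups otherwise shared the same means, and no effect of the mix was simulated. These rates therefore do not cover sparse genes or differences between mixes. With 3 libraries against 3, exact permutation reaches no p under 0.1, so it was not used.

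The members and lists were chosen with earlier results of these data known. Named genes are the 12 called genes of largest log2 change in each direction (groups not overlapping, mean of 10 counts or more), up to 4 members of each list by smallest p, 17 fixed genes, the defining markers, and for each difference the 3 largest in each direction; others were named after their values were seen, to complete a small count. Symbols and positions are from GENCODE vM21 (GRCm38), in which 11020 identifiers had a symbol, and promoters from RefSeq (GRCm38.p6). Use of strand in the counting is not given in the sources used here, so overlapping and near-identical genes are uncertain. PH library 3X (1041129 counts) was not a duplicate of PH library 3. The alternatives were DESeq2 1.42.0, RLE scaling, another threshold, other filters, a model of the compared groups alone, a mix term, mix 6 alone, a replicate block, library 3X, and leaving out each library; a model without the libraries of unoperated VOF liver, whose batch-corrected counts were inflated, was added after seeing the data. Python 3.11.15, NumPy 2.4.6, pandas 2.3.3 and matplotlib 3.10.9 made tables and plots. Myc and Afp were not analysed here. Some members of the gluconeogenesis and DNA damage lists are not reported here, so no full count of called genes is given for these lists.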

Additional observations from a re-analysis of the deposited data

Results flagged for a closer look

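The effect of PH in VOF at 96 h differed from that in another pair of groups, by the interaction test of edgeR, for 144 genes against YF at 96 h, 305 against VOM at 96 h and 121 against VOF at 52 h. Of these, 51, 79 and 35 were also called in VOF at 96 h itself. The counts depend on the model, as given under processing. Each gene below was flagged because its effect differed between the groups.

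Against YF, the largest log2 differences upward were those of Ntrk2, a neurotrophin receptor (6.56), Usp2, a clock-controlled ubiquitin protease (3.98), and Cyp3a11 (2.45). Downward they were those of Gm38070 (−7.56), Gm10232 (−4.94) and F830115B05Rik (−4.79). Ntrk2 read 20.7, 4.07 and 43.3 CPM after PH and 1.34, 3.1 and 0.563 CPM after sham in VOF at 96 h, and 0.351, 0.378 and 2.77 and 3.34, 2.24 and 13.4 CPM in YF.

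Against VOM they were Slco1a1, a male-biased transporter (4.96), Ntrk2 (4.36) and Cib3 (3.98) upward and Prc1 (−9.80), Rnf39 (−8.06) and Cyp2g1 (−6.88) downward. The last 3 genes had no count in the VOM sham libraries, so that these fitted values are no bounds. Against VOF at 52 h they were Ntrk2 (5.05), Nrep (3.60) and Cyp7a1 (3.51) upward and Fam83d (−9.75), Dusp8 (−4.76) and Gm38070 (−4.69) downward. Fam83d had no count in the sham libraries of VOF at 52 h, and its value is no bound either. Of the 3 differences of Ntrk2, that from YF was called in 13, that from VOM in 12 and that from 52 h in 8 of 16 other settings. Against VOM, Slco1a1 was called in 13, Cib3 in 9, Rnf39 in 7 and Cyp2g1 in 15 of these settings, and Prc1 in all 16. Gm10232 was called in 10 of them against YF, and Nrep in 12 against VOF at 52 h. With the mix as a covariate, only Prc1, Dusp8 and, against YF, Gm38070 and F830115B05Rik were still called among the differences flagged here. No group here held more than 3 libraries, so single libraries were not tested as outliers.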

How the results depend on the processing

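With PH against sham in VOF at 96 h called for 571 genes (343 higher, 228 lower), an adjusted p under 0.05 with no fold minimum gave 1002 (531 and 471), the mix as a covariate 305 (183 and 122) and mix 6 alone 358 (189 and 169). Leaving out 1 library gave 448 to 617 in all, 261 to 359 higher and 180 to 259 lower. Only the groups compared gave 440, DESeq2 467, RLE scaling 565, the stricter filter 563, library 3X in place of PH 3 551, 3X added 631 and the model without unoperated VOF 578. The difference from YF was called for 144 genes, and for 63 at an adjusted p under 0.05 with no fold minimum, 9 with only the groups compared, 10 with the mix as a covariate and 74 to 204 without 1 library (74 without PH library 3, 87 without sham library 3, 95 without PH library 1). The difference from VOM was called for 305 genes, and for 164 with only the groups compared, 82 with the mix as a covariate and 232 to 315 without 1 library. The difference from 52 h was called for 121, and for 63 at an adjusted p under 0.05 with no fold minimum, 28 with only the groups compared, 7 with the mix as a covariate and 77 to 111 without 1 library (77 without PH library 3). Mix 6 alone was run only for PH against sham in VOF at 96 h.

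The replicate number as a block gave 483 genes for PH against sham, 34, 183 and 32 for the 3 differences. Whether the numbers pair the samples cannot be settled from these values. Same-numbered PH and sham libraries of VOF at 96 h deviated from their group means with correlations of −0.263, −0.287 and −0.665 over 9147 genes. For different numbers they were 0.117 to 0.272. Deviations of 3 libraries from their mean sum to 0, so that these correlations depend on each other. The 170 single values of named genes include values that were not called in the main model. No called value changed sign under any setting, and changes of sign among values not called were not counted. Of the called values, 35 no longer passed with the mix as a covariate, 24 with only the groups compared and 11 with the block. Of the called values that are effects of PH in VOF at 96 h, and so could be run within mix 6 alone, 29 no longer passed there. The cause of these changes was not tested. Only 3 libraries a group, 1 of each outside mix 6, limit every count.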
